A study of Mus musculus with 6 samples.

Results

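The receptors of the colony-stimulating factor (CSF) family and the ligand Csf1 were examined in myeloid cells of the mouse pancreas after β-glucan treatment. They are 7 genes, Csf2rb, Csf2rb2, Csf2ra, Il3ra, Csf1r, Csf3r and Csf1, of the 21780 genes listed in the deposited count table, matched by their Ensembl gene IDs. The set was selected on the mRNA levels of the same WGP against PBS comparison, known from earlier results of these data. Their differences between the groups are therefore given as a description, with no test. The sorted population was CD45+CD11b+ cells from pancreata of C57BL/6 mice, 6 to 8 weeks old and of both sexes by the study's methods, taken on day 7 after an intraperitoneal injection of PBS (n = 3 libraries) or of whole glucan particles (WGP, n = 3), which are particulate β-glucan from yeast. The comparison asks what WGP changed in the pancreatic myeloid cells. The labels name no other treatment and no transgene, and by the study's account each library is a separate mouse, all from 1 experiment.

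CSF receptors pass signals for the survival, growth and activation of myeloid cells. GM-CSF, interleukin-3 and interleukin-5 each bind a ligand-specific alpha chain (Csf2ra, Il3ra and Il5ra), which pairs with the common beta chain Csf2rb, and the mouse carries a further beta chain, Csf2rb2, which pairs with the interleukin-3 alpha chain. These receptors signal through Jak2 and STAT5. Csf3r, the G-CSF receptor of neutrophils and some monocytes, signals through JAK and STAT proteins as well, whereas Csf1r is a receptor tyrosine kinase of monocytes and macrophages that binds Csf1 and interleukin-34.

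The libraries held between 35334645 and 43341834 counts. Only 130 to 151 genes per library had 1 to 4 counts, and the low counts were most often near 17 to 43 depending on the library, so that several reads may stand for 1 molecule and counting error is larger than the raw counts imply. Pairs of libraries of the same group correlated at r = 0.953 to 0.983 over all genes tested and pairs of different groups at 0.914 to 0.937, which describes the libraries. The mean log2(CPM + 1) of 5 Y-linked genes was 5.28 and 5.31 in PBS replicates 2 and 3 and 0.48 to 0.86 in the other 4 libraries. A covariate for this level, used in some fits below, in effect sets the WGP libraries against PBS replicate 1 alone. PBS replicate 1 also stood apart in B-cell markers, with a summed level of 2082 CPM (read counts scaled to a common library size) against 533 and 305 in the other PBS libraries and 70.1 to 136 in the WGP libraries. Ptprc and Itgam, which encode the sorted antigens CD45 and CD11b, summed to 1203 to 1231 CPM in the PBS libraries and 1925 to 2135 CPM in the WGP libraries. Acinar cell markers summed to 881 to 3652 CPM in PBS and 243 to 428 CPM in WGP, markers of plasmacytoid dendritic cells to 301 to 344 and 62.4 to 84.3 CPM, those of NK cells to 40.9 to 186 and 38.5 to 48.5 CPM, and those of T cells to 0.18 to 3.13 and 3.96 to 23.5 CPM. The part of these cells in the CSF family values was not tested. In bulk RNA, fewer cells of a type and less RNA per cell cannot be told apart.

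All 7 genes passed the filter on low counts and were among the 14429 genes fitted. Of these 7, 5 (Csf2rb, Csf2rb2, Csf2ra, Csf3r and Csf1) were higher in WGP at an adjusted p of at most 0.05, the level passed in that direction by 7.54% of all genes tested, and none was lower, against 6.81% of all genes. With a log2 fold change of at least 1 required as well, 3 were called higher (Csf2rb, Csf2rb2 and Csf1), against 4.53% of all genes, and none lower, against 4.96%. Since the genes were selected with this comparison known, nothing is read from these shares. Together the 7 genes took 0.354% to 0.564% of the counts of a PBS library and 0.555% to 0.626% of those of a WGP library.

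**Figure D1:**
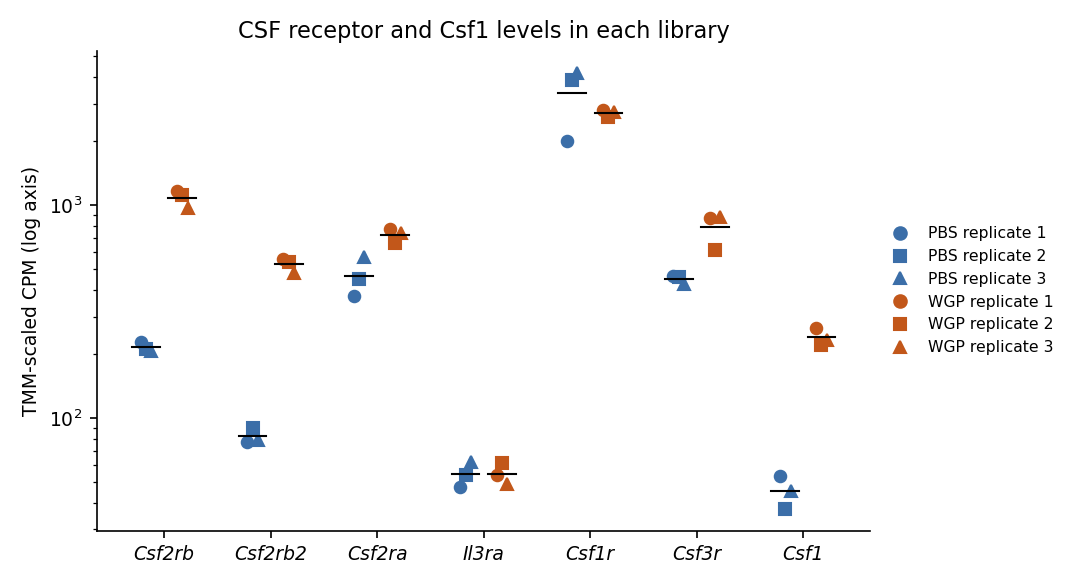
TMM-scaled CPM of the 7 genes in each library on a log axis, PBS in blue and WGP in orange, with the replicate number as the symbol and the group mean as a line. The groups are widely separated for Csf2rb, Csf2rb2 and Csf1, and they overlap for Il3ra and Csf1r.

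The beta chains had the widest separation together with Csf1. Csf2rb (ENSMUSG00000071713, GRCm38 chr15:78325752-78353847, plus strand), the chain shared by the receptors for GM-CSF, interleukin-3 and interleukin-5, had 227, 211 and 206 TMM-scaled CPM in PBS replicates 1, 2 and 3 and 1162, 1118 and 968 CPM in WGP replicates 1, 2 and 3. Every WGP library lay far above the highest PBS library. The mean was 215 ± 11.1 CPM (SD, n = 3) in PBS and 1083 ± 102 CPM in WGP, a 5.04-fold difference with a log2 fold change of 2.33 ± 0.15 (SE). The raw counts behind these levels were 8225 to 8740 in PBS and 39637 to 46356 in WGP.

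Csf2rb2 (ENSMUSG00000071714, chr15:78282507-78305721, minus strand), the chain specific to interleukin-3, lies beside Csf2rb in the opposite orientation. It had 77.2, 90.4 and 79.1 CPM in PBS replicates 1, 2 and 3 and 561, 541 and 481 CPM in WGP replicates 1, 2 and 3. The WGP libraries again lay far above the PBS libraries, with no overlap. The means were 82.2 ± 7.14 and 528 ± 41.4 CPM (SD, n = 3), a 6.42-fold difference (log2 fold change 2.68 ± 0.15). Csf2rb2 supplied 25.3%, 29.98% and 27.7% of the counts of both beta chains in PBS and 32.5%, 32.6% and 33.2% in WGP. Its share was thus above that of each PBS library in every WGP library.

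The 2 beta-chain genes are close in sequence, which bears on how well their counts can be separated. Their coding sequences are 2688 bases (Csf2rb) and 2634 bases (Csf2rb2) long, and over 2628 aligned bases 125 differed (95.2% identity), with a longest identical run of 242 bases. Of the distinct 75-base windows of their annotated transcripts, 518 of 7243 for Csf2rb (7.15%) and 518 of 4872 for Csf2rb2 (10.6%) occur in the other gene, and none occurs in any gene besides the pair. Reads from those windows cannot be assigned to 1 gene, and the handling of such reads is not given in the sources used here. The stretch that differs most, with 25 of 150 bases different, begins at coding base 301 of Csf2rb (exons 5 and 6, within chr15:78338890-78340493) and at coding base 304 of Csf2rb2 (exons 4 and 5, within chr15:78292816-78294441, minus strand). It is shown from the reference transcripts with the differing bases in capitals, because reads from it tell the genes apart.
Csf2rb most different: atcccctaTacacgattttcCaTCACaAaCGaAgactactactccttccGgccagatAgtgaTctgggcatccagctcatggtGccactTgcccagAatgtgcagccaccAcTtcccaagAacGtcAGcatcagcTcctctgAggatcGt
Csf2rb2 most different: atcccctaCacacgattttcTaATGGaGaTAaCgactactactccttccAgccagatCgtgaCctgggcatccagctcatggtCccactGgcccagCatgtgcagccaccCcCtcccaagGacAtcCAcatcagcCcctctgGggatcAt
By contrast, 150 bases that begin at coding base 2083 in both genes (Csf2rb exon 15, chr15:78348577-78348726, and Csf2rb2 exon 14, chr15:78284722-78284871, minus strand) are identical, and a read from this stretch fits both.
Csf2rb and Csf2rb2 shared: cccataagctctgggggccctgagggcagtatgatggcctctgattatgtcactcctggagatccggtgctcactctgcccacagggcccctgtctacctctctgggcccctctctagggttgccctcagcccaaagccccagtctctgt
With the counts of both genes summed to 1 row the log2 fold change was 2.44 ± 0.15, between the values of the single genes. This sum does not depend on how shared reads were divided between the genes, but it lacks any shared reads that the counting left out.

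Around the pair on chromosome 15, 2 of the listed protein-coding genes from Ift27 to Il2rb were higher in WGP at an adjusted p of at most 0.05 from edgeR. Over all genes tested 7.54% were higher at this level. Ift27, Tex33, Tst, Mpst and Tmprss6 did not pass (edgeR adjusted p = 0.312, 0.411, 0.1, 0.244 and 0.471), and Pvalb was not tested. These neighbours were named after their values were seen. Ncf4, a subunit of the phagocyte NADPH oxidase, had 115 to 168 CPM in PBS and 249 to 287 CPM in WGP (log2 fold change 0.99 ± 0.17, adjusted p = 0.00322). Kctd17, an adaptor of a ubiquitin ligase, had 7.14 to 14.7 CPM in PBS and 41.9 to 49.3 CPM in WGP (2.12 ± 0.28, adjusted p = 0.000637). The groups of both neighbours did not overlap. Il2rb, the beta chain of the interleukin-2 receptor, ranged from 19.8 to 83.8 CPM in PBS and from 17.3 to 62.7 CPM in WGP (adjusted p = 0.449), with the groups overlapping.

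The alpha chains differed less between the groups than the beta chains. Csf2ra (ENSMUSG00000059326, chr19:61223957-61228429, minus strand), which binds GM-CSF, had 373, 449 and 572 CPM in PBS replicates 1, 2 and 3 and 771, 663 and 742 CPM in WGP replicates 1, 2 and 3. All WGP libraries lay above all PBS libraries, but the gap between the nearest libraries of the groups was smaller than the range within PBS. The means were 465 ± 100.3 and 725 ± 55.9 CPM (SD, n = 3), a 1.56-fold difference (log2 fold change 0.64 ± 0.18). It was 0.50 ± 0.15 without PBS replicate 1, the lowest library, 0.82 ± 0.17 without PBS replicate 3, the highest of that group, and 0.96 ± 0.20 with a covariate for high Y-linked counts. That covariate fit in effect sets the WGP libraries against PBS replicate 1 alone.

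Il3ra (ENSMUSG00000068758, chr14:14346275-14356011, plus strand), which binds interleukin-3, had 47.5, 54.3 and 62.1 CPM in PBS replicates 1, 2 and 3 and 53.9, 61.7 and 49.0 CPM in WGP replicates 1, 2 and 3. The groups covered the same range. The log2 fold change was 0.01 ± 0.18, with means of 54.6 ± 7.34 and 54.9 ± 6.39 CPM (SD, n = 3). The interleukin-3 beta chain thus stood well above its PBS level while its alpha chain did not, and the ratio of Csf2rb2 to Il3ra, each in CPM per kb of exon, was 1.02, 1.04 and 0.797 in PBS and 6.51, 5.49 and 6.14 in WGP. The ratio of Csf2rb to Csf2ra on the same scale was 0.24, 0.185 and 0.142 in PBS and 0.595, 0.665 and 0.515 in WGP. In both ratios every WGP library exceeded every PBS library, and for Csf2rb and Csf2ra the alpha chain remained the more abundant per length in all 6 libraries.

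Promoters were read as the 250 bases before the RefSeq start on GRCm38.p6, and 5 of the 7 genes had an entry: Csf1, Csf3r, Il3ra, Csf2rb2 and Csf2ra. Those of Csf2rb2 (chr15:78305722-78305971, minus strand), whose mRNA differed most, and Csf2ra (chr19:61228419-61228668, minus strand), whose mRNA differed less, are shown to compare the chains, with motif matches in capitals.
Csf2rb2 promoter: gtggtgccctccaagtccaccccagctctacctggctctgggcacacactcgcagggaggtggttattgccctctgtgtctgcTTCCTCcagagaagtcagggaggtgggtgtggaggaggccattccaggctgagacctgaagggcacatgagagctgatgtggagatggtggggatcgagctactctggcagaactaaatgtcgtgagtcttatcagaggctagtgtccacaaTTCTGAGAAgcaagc
Csf2ra promoter: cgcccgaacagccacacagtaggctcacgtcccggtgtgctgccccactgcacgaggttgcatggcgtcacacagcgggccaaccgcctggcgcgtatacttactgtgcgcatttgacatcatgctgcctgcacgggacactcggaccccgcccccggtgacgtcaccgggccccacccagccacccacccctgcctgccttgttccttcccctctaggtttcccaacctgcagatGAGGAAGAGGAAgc
Matches on both strands were sought to the PU.1 core AGGAAGT, the purine-rich ETS core GAGGAA (which can overlap the former), the STAT motif TTCNNNGAA, the AP-1 motif TGANTCA, the C/EBP core TTGCGCAA and the TATA box TATAAA. The Csf2rb2 promoter held 1 match to GAGGAA, on the opposite strand and beginning 167 bases before the start, and 1 to TTCNNNGAA, 15 bases before it. The Csf2ra promoter held 2 matches to GAGGAA, 14 and 8 bases before the start. GAGGAA was found in 23.3% of the 32851 mouse promoters in the table and TTCNNNGAA in 7.02%. Of the promoters not shown, that of Csf3r held GAGGAA once, that of Il3ra held AGGAAGT once (7.69% of all promoters) and that of Csf1 none of the motifs. The Csf2rb2 promoter held 3 CpG sites and the Csf2ra promoter 17, against a median of 6 over all promoters. These are letter matches in a window and describe no binding.

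Csf1, the ligand of Csf1r (ENSMUSG00000014599, chr3:107741048-107760469, minus strand), is a growth factor that keeps macrophages alive. It had 53.6, 37.5 and 45.3 CPM in PBS replicates 1, 2 and 3 and 265, 221 and 232 CPM in WGP replicates 1, 2 and 3. No WGP library came near the PBS range. The means were 45.5 ± 8.04 and 239.5 ± 22.7 CPM (SD, n = 3), a 5.27-fold difference (log2 fold change 2.40 ± 0.17).

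Csf1r itself (ENSMUSG00000024621, chr18:61100598-61132149, plus strand), the receptor kinase for Csf1, was the most abundant of the 7 mRNAs per length and the most variable. It had 2008, 3893 and 4199.5 CPM in PBS replicates 1, 2 and 3 and 2812, 2584 and 2743 CPM in WGP replicates 1, 2 and 3. PBS replicate 1 was the lowest of all 6 libraries and PBS replicates 2 and 3 were the highest, so the groups overlapped. The means were 3367 ± 1187 and 2713 ± 117 CPM (SD, n = 3), with a log2 fold change of -0.31 ± 0.25. Without PBS replicate 1 it was -0.58 ± 0.11. With a covariate for high Y-linked counts it was 0.43 ± 0.15, and by construction that fit sets the WGP libraries in effect against PBS replicate 1, the single PBS library with low Y-linked counts. The log2 fold change was below 0 in every leave-one-out fit (-0.58 to -0.12), and above 0 in the covariate fit.

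The ratio of Csf1r to its ligand Csf1, each in CPM per kb, was 34.3, 95.0 and 84.8 in PBS and 9.70, 10.7 and 10.8 in WGP. The receptor exceeded the ligand in all libraries, by less in every WGP library than in any PBS library. Of the Csf1r exon bases, 873 of 5774 (15.1%) overlap exons of Hmgxb3 on the opposite strand, and the strand setting of the counting is not given in the sources used here. Hmgxb3, named after its values were seen, had 25.8 to 37.2 CPM in PBS and 41.3 to 54.1 CPM in WGP (adjusted p = 0.197 from edgeR). Per exon length its means were 3.05 CPM per kb in PBS and 4.22 CPM per kb in WGP, against 583 and 469.9 CPM per kb for Csf1r.

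Markers of resident macrophages, which carry Csf1r, moved with the groups. The summed level of 12 markers was 10247, 17756 and 21266 CPM in PBS replicates 1, 2 and 3 and 4122, 6353 and 5512 CPM in WGP replicates 1, 2 and 3. All 12 were below 0 in log2 fold change, with a median of -2.23, and 9 passed the adjusted p, among them the complement genes C1qa (log2 fold change -1.34, adjusted p = 0.00578 from edgeR) and C1qc (-1.28, adjusted p = 0.00797 from edgeR). C1qb, as abundant as these, had -0.78 (adjusted p = 0.0585). Larger falls were found for the scavenger receptor Cd163 (-4.50, edgeR adjusted p = 0.000153), the hyaluronan receptor Lyve1 (-4.66, 0.000266) and the mannose receptor Mrc1 (-2.91, 0.000165), named after their values were seen. None of the markers was at 0. Of 8 markers of Ly6C-high monocytes, which carry Csf1r as well, 5 passed the adjusted p upwards and 1 downwards, with a summed level of 2671 to 4232 CPM in PBS and 3865 to 4439 CPM in WGP. The chemokine receptor Ccr2 rose (1.98, adjusted p = 0.000349), as did Plac8 (2.09, adjusted p = 0.005), and F13a1, coagulation factor XIII A, was the one that fell (-2.57, adjusted p = 0.000411). F13a1 alone held 1335 to 3474 CPM in PBS, and without it the other 7 markers summed to 758 to 1336 CPM in PBS and 3518 to 4004 CPM in WGP. Within PBS, Csf1r and the macrophage sum were both lowest in replicate 1 and highest in replicate 3, whereas in the WGP libraries Csf1r was above PBS replicate 1 at a lower macrophage sum. The part of these markers in the CSF receptor values was not tested.

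**Figure D2:**
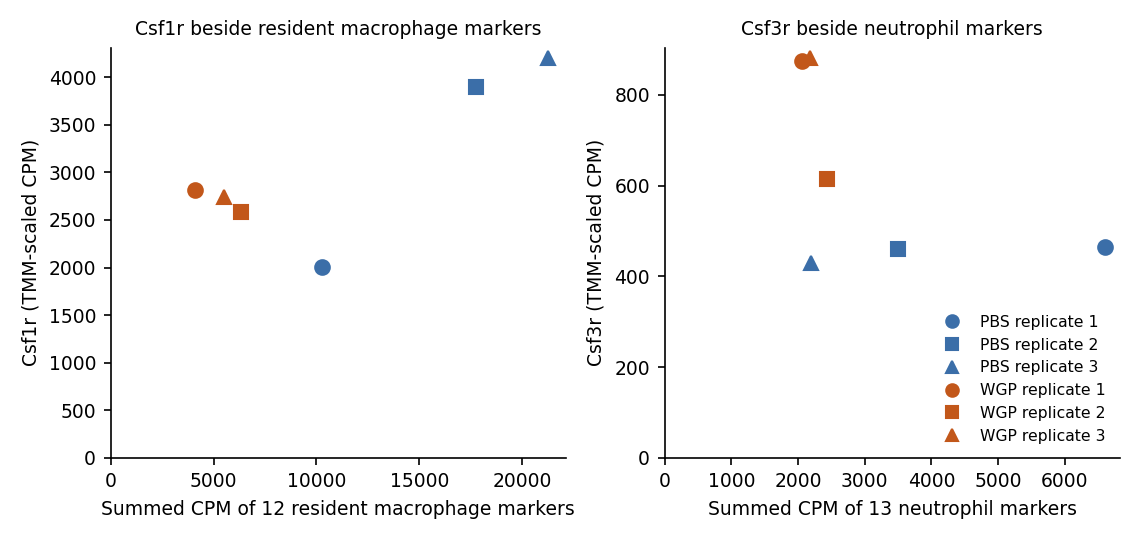
TMM-scaled CPM of Csf1r against the summed CPM of 12 resident macrophage markers (left) and of Csf3r against that of 13 neutrophil markers (right), 1 point per library. The WGP libraries lie at 4122 to 6353 CPM of macrophage markers with Csf1r between 2584 and 2812 CPM, and PBS replicate 1, with the most neutrophil marker counts, is lower in Csf3r than every WGP library.

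Csf3r (ENSMUSG00000028859, chr4:126024550-126044440, plus strand), the receptor for G-CSF, had 466, 459 and 429 CPM in PBS replicates 1, 2 and 3 and 875, 616 and 881 CPM in WGP replicates 1, 2 and 3. WGP replicate 2 was the lowest of its group but still above all PBS libraries. The means were 451 ± 19.9 and 791 ± 152 CPM (SD, n = 3), a 1.75-fold difference (log2 fold change 0.81 ± 0.17), and without WGP replicate 2 the log2 fold change was 0.96 ± 0.15. Of its 75-base windows, 116 of 3701 (3.13%) also occur in other genes.

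Most neutrophil markers had lower values in WGP, where Csf3r was higher. The summed level of 13 markers was 6595, 3494 and 2189 CPM in PBS replicates 1, 2 and 3 and 2056, 2440 and 2178 CPM in WGP replicates 1, 2 and 3. Of the 13, 11 had a log2 fold change below 0, 3 fell and 1 rose at the adjusted p, and none was at 0. The most abundant, the calprotectin genes S100a9 and S100a8 and the granule gene Ngp, had log2 fold changes of -0.77, -0.62 and -1.28 (adjusted p = 0.249, 0.382 and 0.104 from edgeR). The marker that rose, named after its values were seen, was the chemokine receptor Cxcr2, with 28.2 to 53.8 CPM in PBS and 102 to 107 CPM in WGP (1.30, edgeR adjusted p = 0.0032). Csf3r stayed between 429 and 466 CPM in PBS while the marker sum went from 2189 to 6595 CPM. The part of neutrophil content in the Csf3r values was not tested.

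Per exon length, the order of the genes in PBS was Csf1r (348 to 727 CPM per kb), Csf2ra (130 to 199), Csf3r (119 to 129), Csf2rb (28.3 to 31.2), Il3ra (16.0 to 20.9), Csf2rb2 (16.3 to 19.1) and Csf1 (7.10 to 10.1). Il3ra and Csf2rb2 did not differ beyond their spread. In WGP the order was Csf1r (448 to 487 CPM per kb), Csf2ra (231 to 269), Csf3r (171 to 244), Csf2rb (133 to 160), Csf2rb2 (102 to 118), Csf1 (41.9 to 50.2) and Il3ra (16.5 to 20.8). The ranges of Csf2ra and Csf3r overlapped in WGP, and the last place passed from Csf1 to Il3ra.

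**Figure D3:**
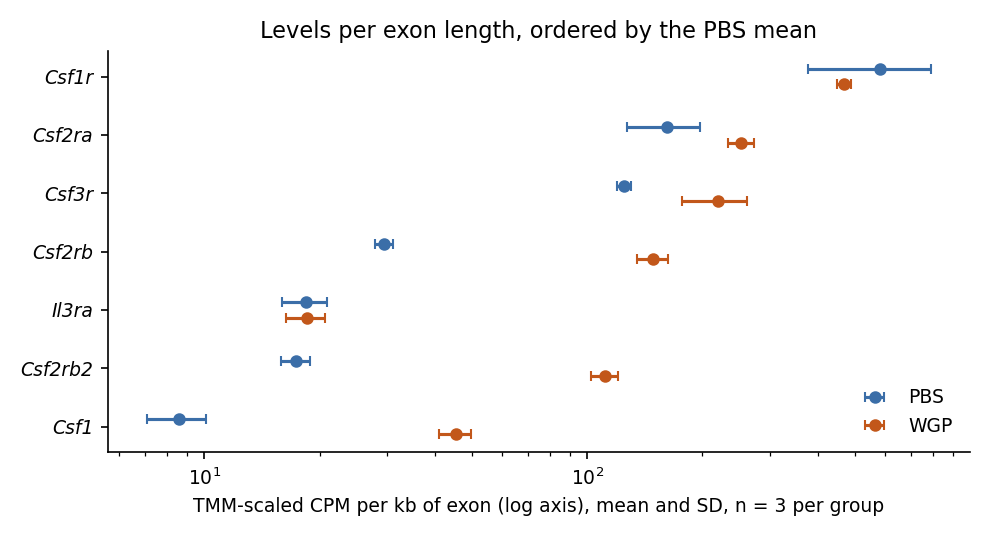
Mean TMM-scaled CPM per kb of exon with SD (n = 3 per group) on a log axis, ordered by the PBS mean. Csf2rb, Csf2rb2 and Csf1 stand clear of their PBS means in WGP, Il3ra is at the same place in both groups, and Csf1r has the widest PBS error bar.

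The genes whose pattern was most like that of each member were sought by Pearson's r of log2(CPM + 1) over the 6 libraries, as a description, since all genes share these libraries and any gene that separates the groups gains a high r. Csf2rb was closest to Atf6b (r = 0.9993), Lyn (0.9984), a Src-family kinase, and Clec4e (0.9979), the receptor Mincle. Ccdc88b (0.9992) and Clec5a (0.9989) were among the genes closest to Csf2rb2. Csf1 was closest to Emb (0.9979), Fam49b (0.9976) and Mthfd2 (0.9973), and Csf2ra to Pcgf3 (0.9976), Sestd1 (0.9945) and Rnpep (0.9941). Csf3r was closest to Ptdss2 (0.9916), Card9 (0.9914), an adaptor of C-type lectin receptors, and Cdk2ap2 (0.9906). The members that did not separate the groups had other neighbours, with Rhoa (0.9946), Nol4l (0.9811) and Il15 (0.9784) nearest to Il3ra, and C5ar1 (0.9851), the C5a receptor, Zfp810 (0.9845) and Ctsa (0.984) nearest to Csf1r. Among the members, r was 0.997 for Csf2rb with Csf2rb2 and 0.9927 for Csf2rb with Csf1, but 0.0331 for Csf2rb with Il3ra and -0.3656 for Csf2rb with Csf1r.

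The ligands of these receptors, apart from Csf1, were scarce or not detected in the sorted cells. Il3 and Il5 had 0 counts in all 6 libraries, as had the cytokine gene Thpo, which allows up to 3 counts, or 0.0692 to 0.0849 CPM per library (counting error only). This limit takes each read as 1 molecule, and it is too low where several reads stand for 1 molecule. Csf2, which encodes GM-CSF, had 57 counts in PBS replicate 1, 16 in WGP replicate 1 and 0 in the other 4 libraries, where the most frequent low count was 43 in PBS replicate 1 and 17 in WGP replicate 1. Csf3, which encodes G-CSF, had 0, 0 and 10 counts in PBS replicates 1, 2 and 3 and 33, 0 and 12 in WGP replicates 1, 2 and 3. Il34, the other ligand of Csf1r, had 45, 17 and 29 counts in PBS and 0, 81 and 0 in WGP. No difference in Csf2, Csf3 or Il34 was detectable at this depth (edgeR adjusted p = 0.814, 0.742 and 0.971).

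Of the 18 related ligands and receptors listed, 14 were tested. At the adjusted p 1 rose and 3 fell, with a median log2 fold change of -0.74 against -0.05 over all genes tested. Kit, the stem cell factor receptor and a relative of Csf1r, rose from 12.0 ± 4.23 to 39.6 ± 7.25 CPM (n = 3, log2 fold change 1.72 ± 0.30, edgeR adjusted p = 0.00316). Its ligand Kitl fell from 70.9 ± 31.9 to 4.09 ± 3.55 CPM (-4.11 ± 0.63, edgeR adjusted p = 0.00159). Kit was also the bulk of the mast cell and basophil marker sum in WGP, 32.9 to 49.1 CPM against 13.4 to 31.9 CPM in PBS, where 2 of the 9 markers, the proteases Cpa3 and Mcpt4, were at 0 in all libraries and no marker other than Kit passed the test. The erythropoietin receptor Epor fell from 18.7 ± 6.46 to 1.60 ± 0.661 CPM (-3.55 ± 0.49, edgeR adjusted p = 0.000854). Pdgfb fell from 74.4 ± 17.4 to 39.2 ± 6.35 CPM (-0.92 ± 0.21, edgeR adjusted p = 0.0156), but missed the threshold without PBS replicate 2 (0.08) or WGP replicate 1 (0.0721) and with the Y-linked covariate (log2 fold change -0.50, adjusted p = 0.223).

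Il5ra, the interleukin-5 alpha chain and the third partner of Csf2rb, had 58.3, 15.6 and 5.82 CPM in PBS replicates 1, 2 and 3 and 11.2, 4.90 and 3.69 CPM in WGP replicates 1, 2 and 3. PBS replicate 1 was far above the rest and the groups overlapped (log2 fold change -2.01 ± 0.74, edgeR adjusted p = 0.105). Without PBS replicate 1 the log2 fold change was -0.71 (edgeR adjusted p = 0.515), whereas Il5ra passed the threshold without PBS replicate 3 (-2.49, adjusted p = 0.0244), in DESeq2 (-2.02, 0.0315) and with the replicate block (-1.58, 0.0269). With the Y-linked covariate the log2 fold change was -3.15, in a fit that in effect sets the WGP libraries against PBS replicate 1 alone. Of 7 eosinophil markers, Il5ra among them, 1 fell at the adjusted p, the summed level was 73.8 to 108 CPM in PBS and 34.0 to 88.3 CPM in WGP, and none was at 0 in all libraries. Flt3, the receptor of dendritic cell growth factor Flt3l, had 36.7 to 42.9 CPM in PBS and 16.1 to 30.2 CPM in WGP (-0.69 ± 0.25, edgeR adjusted p = 0.11), without overlap, and conventional dendritic cell markers, Flt3 among them, summed to 266 to 268 CPM in PBS and 116 to 218 CPM in WGP. Flt3l, Pdgfa, Pdgfrb and the growth hormone receptor Ghr had adjusted p values of 0.626, 0.347, 0.304 and 0.472. Pdgfra had 2.74 to 3.49 CPM in PBS, 47.1 CPM in WGP replicate 2 and 0 in the other WGP libraries (adjusted p = 0.454, and 0.0159 for a difference of the opposite sign without WGP replicate 2). Fibroblast and endothelial markers summed to 1398 CPM in WGP replicate 2 and to 46.8 to 259 CPM in the other 5 libraries.

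Over the 6 lists of the CSF receptor pathways, without the 7 members, 110 of 114 genes were tested, and 27 rose and 14 fell at the adjusted p, with a median log2 fold change of 0.18. Over all genes tested 7.54% rose and 6.81% fell at this level, with a median of -0.05, and the counts of the single lists are to be read beside these shares. The count of 41 was 27 without PBS replicate 2 and 29 with the Y-linked covariate, under which Kit (adjusted p = 0.0511), Ptpn6 (0.051), Socs1 (0.0637) and Irf8 (0.0637) missed the threshold, as did 7 other genes named with these lists. Of the 34 proximal signaling genes, which carry the signal from the receptors, 13 rose and 1 fell, with a median of 0.43. Jak2, the kinase bound to the beta chains, rose from 124 ± 17.1 to 348 ± 55.6 CPM (n = 3, log2 fold change 1.5 ± 0.17, edgeR adjusted p = 0.000279). The Src-family kinase Fgr also rose (1.82 ± 0.16, edgeR adjusted p = 5.44e-05). Stat5a and Stat5b, the STAT proteins most tied to these receptors and named here after their values were seen, had log2 fold changes of 0.28 ± 0.17 and 0.26 ± 0.16 (edgeR adjusted p = 0.342 and 0.359). Gab3, an adaptor of Csf1r signaling, fell (-1.20 ± 0.33, edgeR adjusted p = 0.0355), but missed the threshold without PBS replicate 2 or 3 or WGP replicate 1 or 2 (adjusted p up to 0.153), in limma-voom (0.0527) and with the Y-linked covariate (log2 fold change -0.86, adjusted p = 0.255).

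Of the 21 negative regulators of these receptors, 4 rose and 1 fell, with a median log2 fold change of 0.08. Socs1, an inhibitor of JAK kinases, rose from 5.21 ± 3.94 to 67.1 ± 25.4 CPM (n = 3, log2 fold change 3.69 ± 0.65, edgeR adjusted p = 0.00354). Ptpn6, the phosphatase SHP-1, rose 0.74 ± 0.15 on the log2 scale (edgeR adjusted p = 0.00777). Cbl, the ubiquitin ligase that takes Csf1r from the membrane, rose 0.58 ± 0.14 (edgeR adjusted p = 0.0178), and Cish, an inhibitor induced by STAT5, rose 1.22 ± 0.34 (edgeR adjusted p = 0.0386). Cbl missed the threshold without PBS replicate 2 or WGP replicate 1 or 3 (adjusted p up to 0.0728), and Cish without PBS replicate 2 or 3 or WGP replicate 1 (up to 0.198). Cish also missed the threshold in limma-voom (adjusted p = 0.0613), with library totals only (0.0656) and with the Y-linked covariate (log2 fold change 0.80, adjusted p = 0.335). Spry1, an inhibitor of receptor tyrosine kinase signaling, fell from 7.41 ± 0.767 to 0.926 ± 0.311 CPM (-3.00 ± 0.66, edgeR adjusted p = 0.0117).

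Among 18 target genes linked to STAT5, 5 rose and 4 fell, with a median log2 fold change of -0.05, the same as over all genes tested. The survival genes Bcl2a1b (1.31 ± 0.20, edgeR adjusted p = 0.00165) and Bcl2a1d (1.29 ± 0.30, 0.0168), the cytokine Osm (1.17 ± 0.27, 0.0158) and the cyclin Ccnd3 (0.56 ± 0.15, 0.0308) rose beside Cish. Bcl2a1b and Bcl2a1d are near-identical copies, so their counts are uncertain. The proliferation genes Myc (-2.11 ± 0.37, edgeR adjusted p = 0.00333) and Ccnd1 (-1.0 ± 0.17, 0.00252), the survival gene Bcl2 (-1.37 ± 0.31, 0.0151) and Id1 (-2.22 ± 0.61, 0.0346) fell. Without 1 library the adjusted p was above 0.05 for Bcl2 (WGP replicate 1, adjusted p = 0.0682), Bcl2a1d (WGP replicate 1 or 3, up to 0.0606), Osm (PBS replicate 2 or 3, up to 0.0565), Ccnd3 (PBS replicate 2 or 3 or WGP replicate 2 or 3, up to 0.133) and Id1 (PBS replicate 1 or 2 or WGP replicate 1 or 3, up to 0.185). Id1 also missed the threshold in limma-voom (adjusted p = 0.184), Bcl2a1d (log2 fold change 0.90, adjusted p = 0.2) and Osm (1.06, 0.138) with the Y-linked covariate, and Ccnd3 with that covariate (adjusted p = 0.147), with the replicate block (0.0637) and with library totals only (0.0756).

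**Figure D4:**
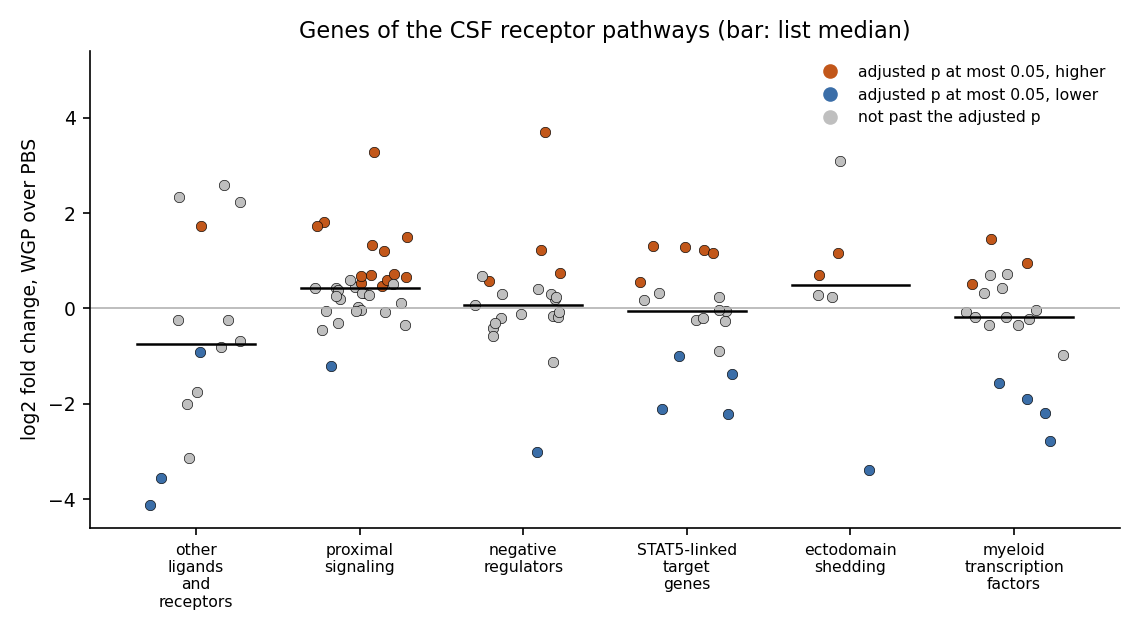
Log2 fold change of WGP over PBS for each tested gene of the 6 pathway lists, 1 point per gene, orange where higher and blue where lower at an adjusted p of at most 0.05, with the list median as a bar. The proximal signaling genes have a median of 0.43, and the STAT5-linked genes split into 5 that rose and 4 that fell.

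Of 6 genes of ectodomain shedding, by which receptors such as Csf1r are cut from the cell surface, 2 rose and 1 fell, with a median log2 fold change of 0.50. The protease Adam17 rose from 157 ± 13.9 to 353 ± 23.1 CPM (n = 3, log2 fold change 1.17 ± 0.14, edgeR adjusted p = 0.000382), and its partner Rhbdf2 rose 0.71 ± 0.16 (edgeR adjusted p = 0.0118, and 0.052 without PBS replicate 2). The related Rhbdf1 fell from 54.4 ± 8.03 to 5.21 ± 3.33 CPM (-3.38 ± 0.41, edgeR adjusted p = 0.000366).

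Of 19 myeloid transcription factors that act on these receptor genes or downstream of them, 3 rose and 4 fell, with a median log2 fold change of -0.18. Cebpb, active in inflammatory and stress myelopoiesis, rose from 185 ± 31.0 to 504 ± 45.4 CPM (n = 3, log2 fold change 1.45 ± 0.17, edgeR adjusted p = 0.000272), and Irf8, a monocyte and dendritic cell factor, rose 0.96 ± 0.18 (edgeR adjusted p = 0.00521). Spi1, which encodes PU.1, rose 0.51 ± 0.13 (edgeR adjusted p = 0.0256), but missed the threshold without any 1 of the libraries except PBS replicate 1 (adjusted p up to 0.104), with the replicate block (0.0619), with library totals only (0.0678) and with the Y-linked covariate (0.0672). Klf4 (-2.20 ± 0.20, edgeR adjusted p = 6.23e-05), Egr1 (-1.89 ± 0.17, 6.02e-05), Irf4 (-2.78 ± 0.36, 0.00055) and Maf (-1.56 ± 0.24, 0.00179) fell. Maf is also one of the resident macrophage markers.

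Across all processing settings other than the summed beta chains, leave-one-out fits included, the log2 fold change was 2.23 to 2.41 for Csf2rb, 2.58 to 2.77 for Csf2rb2, 2.16 to 2.53 for Csf1, 0.71 to 0.96 for Csf3r and 0.50 to 0.96 for Csf2ra. That of Il3ra went from -0.09 to 0.21 and that of Csf1r from -0.58 to 0.43. The sign held over these settings for the former 5 genes and changed for Il3ra and Csf1r.

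**Figure D5:**
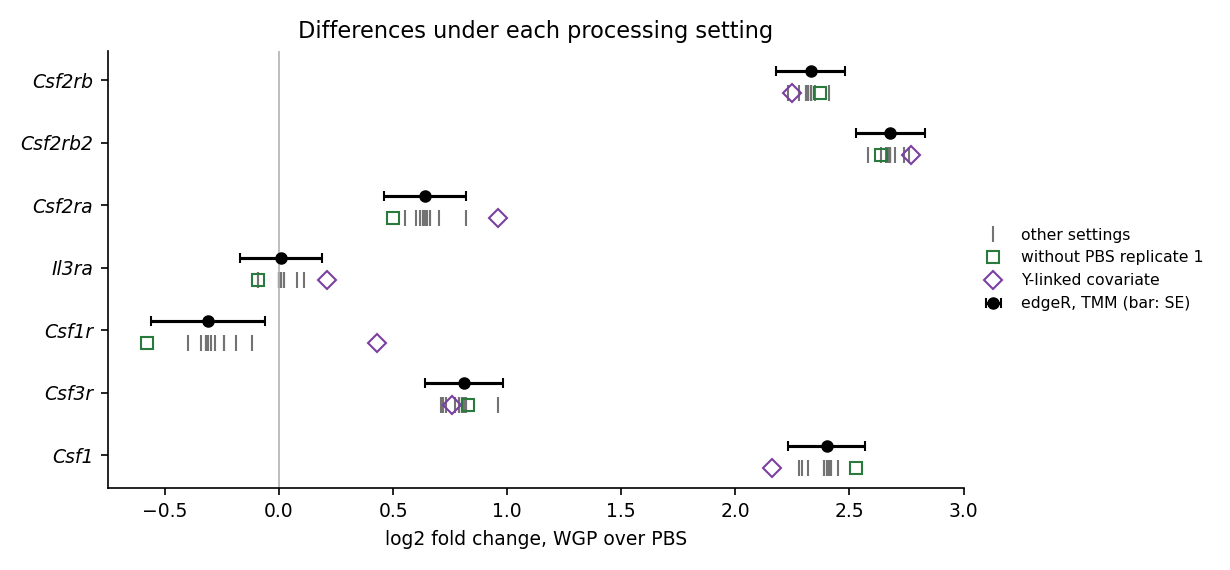
Log2 fold change of WGP over PBS for the 7 genes from edgeR with TMM scaling (black, bar: SE) and under each other setting except the summed beta chains (grey ticks), with the fits without PBS replicate 1 (green squares) and with the Y-linked covariate (purple diamonds) marked. Csf1r runs from -0.58 to 0.43 with these 2 fits at its ends, while Csf2rb, Csf2rb2 and Csf1 stay above 2.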

How the data were processed

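RNA of sorted CD45+CD11b+ pancreatic cells was sequenced in 3 libraries per group. The deposited values are raw counts per Ensembl gene, which the authors made from single-end reads with STAR (version 2.6), on mm10 (GRCm38.p6), and HTSeq (version 0.10.0), per the submitters' processing notes. The annotation release, strand setting and duplicate handling are not given in the sources used here. Gene names and exon lengths are from GENCODE vM21, promoters from RefSeq.

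WGP was compared with PBS by edgeR (version 4.0.16, R 4.3.3), a quasi-likelihood test with TMM scaling, in 14429 genes (protein-coding, and summing to 10 or more RLE-normalized counts). A call needed an adjusted p (Benjamini-Hochberg) no larger than 0.05 and a log2 fold change of 1 or more in size, while list counts use the adjusted p alone. SEs were derived from the F statistic. The scripts were tested on simulated data. By the study's account the libraries of a group are separate mice of 1 experiment, so p-values measure the spread between mice within it. DESeq2 (1.42.0), limma-voom (3.58.1), other scalings and filters, a replicate block, a Y-linked covariate and leave-one-out fits were alternatives. Dividing counts by the most frequent low count was added after the data were seen.

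The members and gene lists were chosen with earlier results of these data known. Named genes were the members, the related ligands and receptors, the 4 smallest p values in each direction per other list, abundant or undetected markers, and the 3 genes most like each member. Exceptions are stated. The values of 4 genes that this rule names are not reported here.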

Additional observations from a re-analysis of the deposited data

How the results depend on the processing

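Most values stayed close to the main fit. Of the values that answer a comparison 154 stayed and 6 moved. A gene count stayed when it was within a set ratio of the main count. A member stayed when its log2 fold change shifted by less than its SD within groups, whatever its sign. For single named genes 608 kept their sign and side of the adjusted p, 50 lost and 5 gained the adjusted p and 7 changed sign. Il3ra and Csf1r are members, and their sign changes are not among these 7. With the Y-linked covariate the log2 fold change moved to 2.16 for Csf1, 0.43 for Csf1r, 0.96 for Csf2ra and 0.21 for Il3ra. At the adjusted p alone, 2071 genes passed over all genes, against 1369 with the fold change threshold. The pathway lists had 27 to 46 genes past the test in the leave-one-out fits, against 41 with all libraries, and the members 3 called in each of them, all genes 1144 to 1394. Leaving out 1 library gave 2.28 to 2.41 for Csf2rb, 0.50 to 0.82 for Csf2ra, -0.58 to -0.12 for Csf1r, 0.72 to 0.96 for Csf3r and 2.28 to 2.53 for Csf1. Outside the members, sign changes were found in genes with few counts or 1 deviating library: Csf2 went from -7.32 to 5.55 over the leave-one-out fits (5.55 without PBS replicate 1), Il34 from -7.93 to 0.34 (0.19 without PBS replicate 1, 0.34 without WGP replicate 1 or WGP replicate 3) and Pdgfra from -9.92 (without WGP replicate 2) to 2.93, with -3.90 in limma-voom and -4.04 with the replicate block. The causes were not tested.

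The replicate numbers showed no sign of pairing, as deviations of same-numbered libraries correlated at 0.0356, -0.0664 and 0.0554. This check cannot settle whether the libraries were paired. With the replicate block 1341 genes were called over all genes, 40 pathway genes passed, 3 members were called, and the log2 fold changes of the members were 2.33 for Csf2rb, 0.66 for Csf2ra, -0.24 for Csf1r, 0.79 for Csf3r and 2.41 for Csf1. Depth limits Csf2, Csf3 and Il34, whose counts were near the most frequent low count or 0.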
